A study of Sus scrofa with 12 samples.

Results

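The small nuclear RNA (snRNA) clusters are those rows of the array sheet whose transcript description carries the biotype snRNA and not the biotype snoRNA, which left 626 of 25388 transcript clusters. A transcript cluster is the group of probes that the array assigns to 1 transcript locus. By the names in their descriptions, 543 clusters were of U6, 32 of U1, 23 of U2, 14 of U6atac, 7 of U5, 4 of U4, 2 of U12 and 1 of U11, and none had a gene symbol. Liver RNA was measured in 12 male crossbred pigs, 1 array per pig, that were 5 weeks old at the start. The 6 pigs of group PIV (P10, P12, P29, P30, P31 and P50) were given 30 mg sodium pivalate per kg body weight each day for 28 days, dissolved in a NaHCO3 solution, and the 6 pigs of group CON (K1, K3, K4, K22, K23 and K42) were given that NaHCO3 solution alone. Both groups were fed the same diets, which were low in carnitine. Pivalate is bound to carnitine and leaves the body in that form, and the comparison was made to learn how carnitine depletion affects the liver. Depletion of carnitine and other effects of pivalate cannot be told apart with these groups.

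The snRNAs are short nuclear RNAs that remove introns from precursor mRNA together with their proteins. In the major spliceosome, U1 pairs with the start of an intron and U2 with its branch point, U4 carries U6 in a paired, inactive form, and U5 holds the exon ends. U11, U12 and U6atac do the work of U1, U2 and U6 in the minor spliceosome, which removes a small class of introns. U6 and U6atac are made by RNA polymerase III and bind a ring of LSm proteins, whereas the other families are made by RNA polymerase II, trimmed by the Integrator complex and bound by a ring of Sm proteins. Mammalian genomes hold many copies of these genes, of U6 above all, and most copies are held to be pseudogenes. Since probes for such copies can bind the same RNA, a signal cannot be assigned to 1 locus, and a cluster is called here by its family and its array number.

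The clusters were short and nearly all were marked as cross-hybridising. U6 clusters spanned 93 to 115 bases and U1 clusters 149 to 168 bases. The number of probes ran from 1 to 25, with a median of 11. The array annotation gave cross-hybridisation type 1 (probes that match 1 locus only) to 131 clusters and type 3 (probes of mixed matches) to 495 clusters, and a second column marked 610 of all 626, including 120 of type 1, as cross-hybridising. Identical values in all 12 pigs were found for 118 clusters, in 56 pairs and 2 sets of 3, so the 626 clusters held 566 distinct series of values. The clusters lay on placed chromosomes in 619 cases, of which 73 were on chromosome 1 and 41 on chromosome X, and no 2 of them overlapped. Positions follow the annotation of the array, and its build is not stated in the sources used here.

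Most snRNA clusters were dim. The mean signal over the 12 pigs, on the log2 scale of RMA (the background-corrected, normalized and summarised probe intensity), had a median of 2.12 over the snRNA clusters and 4.82 over all clusters. A log2 signal of at least 5 in at least 6 pigs was reached by 60 snRNA clusters (9.59%) and by 11789 of all clusters (46.4%). The highest mean was 11.2 and the lowest 0.95. By family, the median signal was 6.72 for U12, 4.72 for U1, 4.47 for the U11 cluster, 3.14 for U5, 2.60 for U6atac, 2.25 for U2, 2.06 for U6 and 1.67 for U4. These levels depend on the probes of a cluster as well as on its RNA, so their order is no order of RNA amounts. A signal of 5 or more in at least 6 pigs was reached by 14 of 32 U1 clusters and 40 of 543 U6 clusters, but by none of the 23 U2, 4 U4 and 1 U11 clusters.

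**Figure D1:**
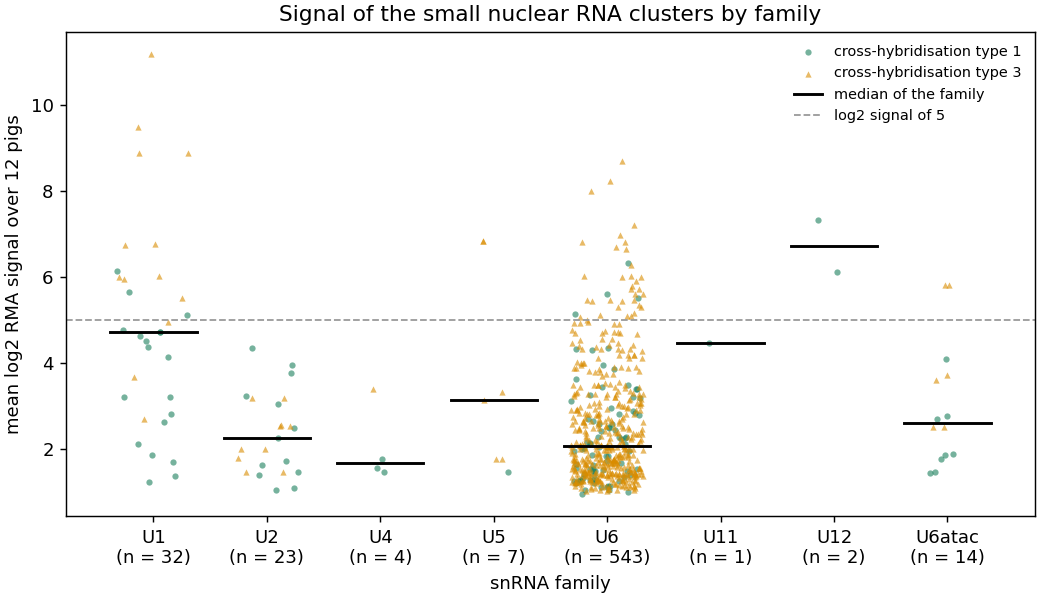
Mean log2 RMA signal over 12 pigs (vertical axis) of each small nuclear RNA cluster, by family, with circles for cross-hybridisation type 1, triangles for type 3, a bar at the median of the family and a dashed line at a log2 signal of 5. The U6 median is 2.06, and the highest points are U1 clusters, up to 11.2.

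The brightest cluster was a U1 cluster, and neither it nor the brightest clusters of the other families separated the groups. U1 cluster 15320910, on the plus strand of chromosome 8 (bases 60869549 to 60869712; 7 probes, type 3), had a lowest, median and highest log2 signal of 10.72, 11.08 and 11.40 in group PIV, against 10.50, 11.59 and 11.80 in group CON. In group CON, 4 pigs stood above every PIV pig and the other pigs, K22 and K23, stood below every PIV pig. The means were 11.07 ± 0.23 in group PIV and 11.30 ± 0.61 in group CON (SD, n = 6 each), a log2 FC (PIV minus CON) of −0.22 with a standard error of 0.22 (exact permutation test, two-sided, p = 0.424). The same pair of control pigs was lowest in U1 cluster 15305506 on chromosome 6, whose signal was 9.45 ± 0.18 in group PIV and 9.52 ± 0.48 in group CON (exact permutation test, p = 0.76). Clusters 15311450 and 15317285, on opposite strands of chromosome 7, had identical values, with a signal of 8.81 ± 0.20 in group PIV and 8.96 ± 0.59 in group CON (exact permutation test, p = 0.552).

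Among the U6 clusters, the brightest was 15337403 on chromosome X (bases 72228804 to 72228910; 4 probes), with a lowest, median and highest signal of 8.24, 8.43 and 9.08 in group PIV, against 8.12, 8.96 and 9.43 in group CON. The groups overlapped, with K22 and K23 again below all PIV pigs, and the log2 FC was −0.24 ± 0.22 (SE; exact permutation test, p = 0.39). The minor spliceosome's U12 cluster 15291155 on chromosome 5, of type 1 and not marked as cross-hybridising, showed the same order. Its signal was 7.19 ± 0.20 in group PIV and 7.47 ± 0.66 in group CON, with a log2 FC of −0.28 ± 0.23 (SE; exact permutation test, p = 0.351). The PIV pigs lay between 6.99 and 7.45, with control pigs K1, K3, K4 and K42 above them, at 7.62 to 8.08, and K22 (6.98) and K23 (6.36) below them. The cluster did not pass the filter with all 12 pigs, and it passed once K23 was left out, with a log2 FC of −0.50. K23 was the lowest control pig in this cluster, so leaving it out by itself moves the log2 FC downward. Without K23, 2.65% of all clusters passed the filter, against 1.82% with all 12 pigs. That fit therefore does not show a difference between the groups. The other U12 cluster, 15224489 on chromosome 14, was at 6.18 ± 0.14 in group PIV and 6.04 ± 0.07 in group CON (exact permutation test, p = 0.0671).

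**Figure D2:**
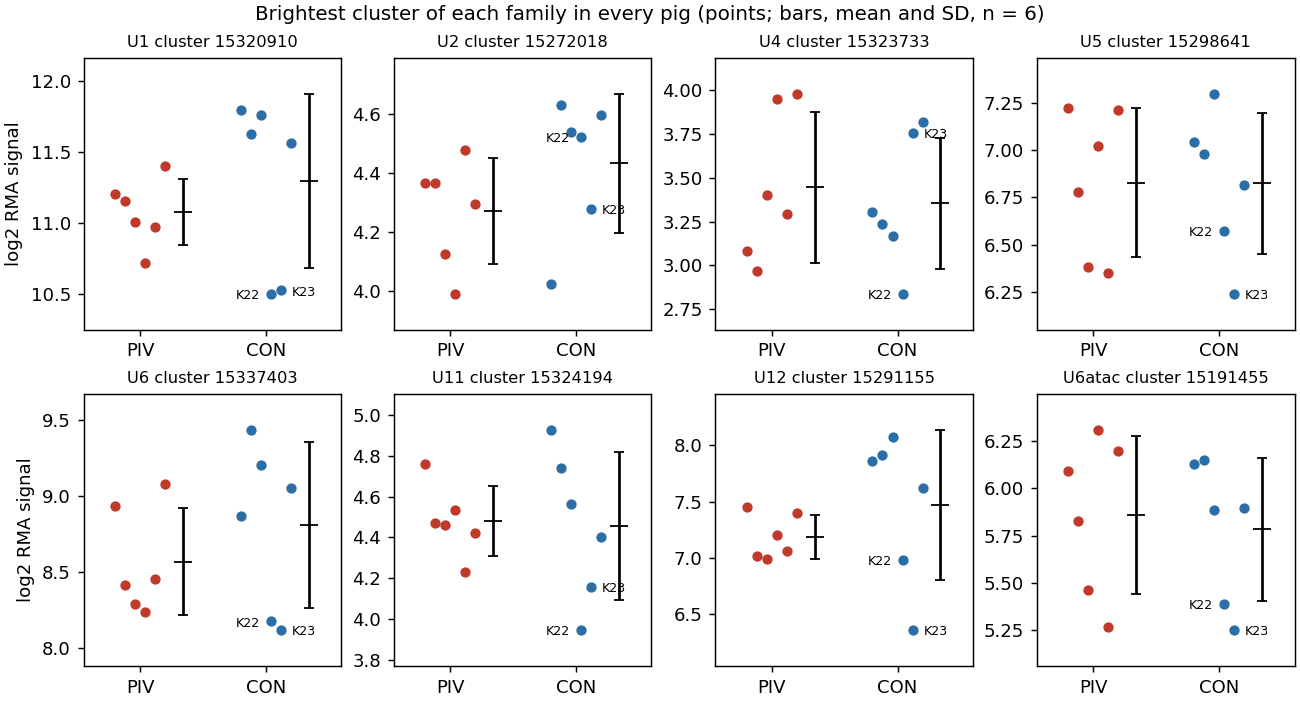
Log2 RMA signal (vertical axis, own range in each panel) of the brightest cluster of each family in every pig, with group PIV left of group CON, points for pigs and bars for the mean and SD (n = 6 each). Pigs K22 and K23, marked by name, are the lowest of group CON for U1, U5, U6, U11, U12 and U6atac, and the groups overlap in every panel.

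For the remaining families the group means of the brightest cluster lay closer together. U5 cluster 15298641 on chromosome 6, identical in values to a second U5 cluster there, had a signal of 6.83 ± 0.39 in group PIV and 6.82 ± 0.37 in group CON. U6atac cluster 15191455 on chromosome 1 had 5.86 ± 0.42 in group PIV and 5.78 ± 0.38 in group CON. U11 cluster 15324194 on chromosome 8 had 4.48 ± 0.17 in group PIV and 4.46 ± 0.36 in group CON. The signs of these small differences were not settled, since each of these 3 turned round under at least 1 other setting. U2 cluster 15272018 on chromosome 3 had a log2 FC of −0.16 ± 0.11 (SE; exact permutation test, p = 0.206), and U4 cluster 15323733 on chromosome 8, at a signal of 3.40 over all pigs, had one of 0.09 ± 0.20 (SE; exact permutation test, p = 0.68).

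Averaged over clusters, bright snRNAs differed between the groups by less than the SD within them, and the control pigs differed more among themselves. Over the 94 distinct snRNA clusters with a mean signal of at least 4, the average per pig was 5.44 ± 0.12 in group PIV and 5.45 ± 0.23 in group CON. For the 20 bright U1 clusters it was 5.98 ± 0.12 in group PIV and 6.05 ± 0.31 in group CON, and for the 67 bright U6 clusters 5.27 ± 0.12 in group PIV and 5.26 ± 0.21 in group CON. In each of the 3 averages, K22 and K23 were the lowest pigs of all 12. For comparison, 214 small nucleolar RNA clusters of that brightness averaged 7.08 ± 0.13 in group PIV and 7.25 ± 0.22 in group CON. With both left out, a choice made after seeing these values that by itself moves them downward, the log2 FC was −0.61 for U1 cluster 15320910, −0.57 for U6 cluster 15337403 and −0.68 for U12 cluster 15291155. Array K22 also lay farthest out on the first principal component of all clusters and had the lowest array weight (0.52). In whole liver, fewer cells of a type and less RNA per cell cannot be told apart, and arrays 1 to 6 were those of group CON, so the numbering of arrays and the groups cannot be told apart either.

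The snRNA clusters varied more between pigs of a group than other clusters did, and the more so the fewer probes they had. The SD within groups had a median of 0.23 over small nucleolar RNA clusters and of 0.20 over microRNA precursor clusters. Its median was 0.25 over the snRNA clusters and 0.18 over all clusters. It was 0.66 for the 15 snRNA clusters with 1 or 2 probes, 0.40 for the 38 with 3 to 7, 0.29 for the 167 with 8 or 9, 0.27 for the 143 with 10 to 12, 0.22 for the 138 with 13 to 18 and 0.19 for the 43 with 19 to 24 and for the 82 with 25. Other clusters of the same probe numbers had medians of 0.40, 0.34, 0.28, 0.24, 0.21, 0.18 and 0.17, lower in each class. By cross-hybridisation type, the median SD was 0.24 for type 1 and 0.25 for type 3, and the median signal was 2.12 for both. By signal, the median SD was 0.21 for the 283 clusters below 2 and 0.30 for the 27 from 6 up.

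**Figure D3:**
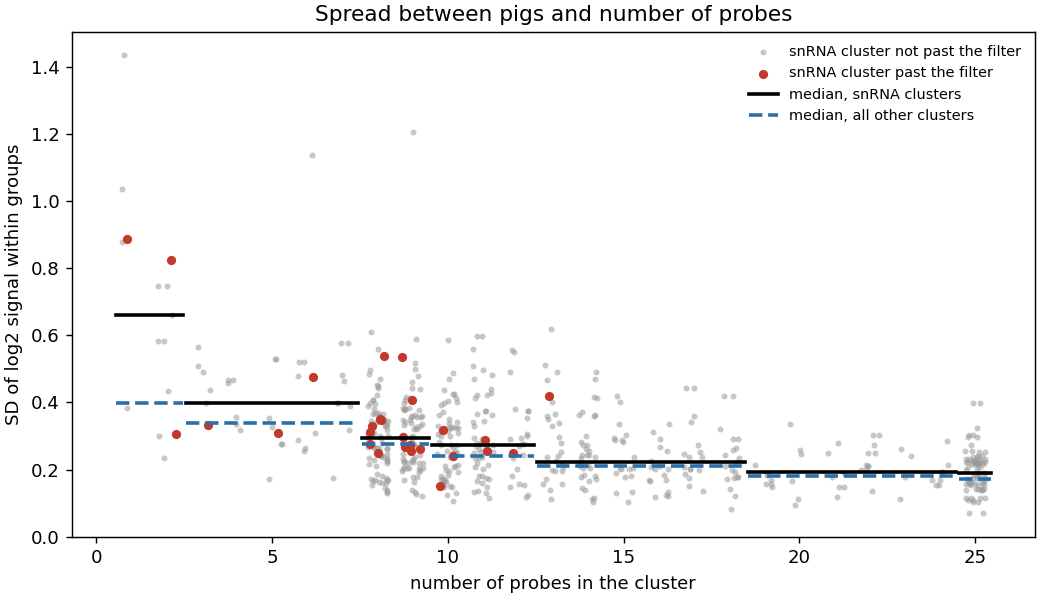
SD of log2 signal within groups (vertical axis) against the number of probes (horizontal axis, points shifted slightly sideways) for the 626 small nuclear RNA clusters, in red where the cluster passed the filter. Solid and dashed lines give the median of a class of probe numbers for snRNA clusters and for all other clusters: the median of snRNA clusters is 0.66 at 1 or 2 probes and 0.19 at 25 probes.

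The 5 clusters with the largest SD within groups held 1 to 9 probes. U6 cluster 15243839 (1 probe, chromosome 16) ran from 1.98 to 5.60 in group PIV and from 1.55 to 5.15 in group CON. U6 cluster 15289929 (9 probes, chromosome 5) ran from 2.22 to 4.46 in group PIV and from 1.49 to 5.39 in group CON. U1 cluster 15245174 (6 probes, chromosome 16) ran from 2.29 to 3.97 in group PIV and from 2.13 to 6.06 in group CON, with the highest value in K4. U6 clusters 15316608 and 15269336, each with 1 probe, completed the 5 and held the highest and the lowest log2 FC of all snRNA clusters.

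Across the 12 arrays the snRNA clusters hardly moved together, except for bright ones. Pearson's r between 2 clusters was taken over the 12 arrays after subtracting each group's mean, and is given as a description, since clusters of a family can share probes or RNA and all share the arrays. Its median over all pairs of the 566 distinct clusters was 0.06 (quartiles −0.18 and 0.29), against 0.0036 over all other clusters. Among the 94 bright clusters the median was 0.29, and among the dimmer ones 0.04. By family, the median r was 0.38 for U1, 0.20 for U6atac, 0.05 for U6 and 0.03 for U2. Bright U1 clusters had a median of 0.43 with each other and of 0.32 with bright U6 clusters, which had 0.28 with each other. Bright clusters of type 3 had a median of 0.33 and those of type 1 a median of 0.19, and bright small nucleolar RNA clusters had one of 0.47. Between pairs of arrays, r over the distinct snRNA clusters lay between 0.951 and 0.971, and over all clusters between 0.977 and 0.991.

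The clusters most like the brightest U1 cluster were other U1 clusters and small nucleolar RNAs. An r over 0.8 with cluster 15320910 was reached by 7 of 31 other U1 clusters (22.6%), 9 of 543 U6 clusters (1.66%), 42 of 359 small nucleolar RNA clusters (11.7%) and 64 of 14423 clusters with a gene symbol (0.444%). An r under −0.8 was found for 199 clusters with a gene symbol, 1 small nucleolar RNA cluster and no U1 or U6 cluster. Over all 25384 other clusters, 190 were over 0.8 and 306 under −0.8. The nearest were the identical U1 clusters 15311450 and 15317285 and U1 cluster 15208369 on chromosome 12, each at 0.97, followed by a small nucleolar RNA cluster at 0.95 and U1 cluster 15305506 at 0.94. Among clusters with a gene symbol, RPL27A, a protein of the large ribosomal subunit, was nearest, at 0.93. Cluster 15208369 is of type 1 and had a mean signal of 4.71.

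Neighbouring snRNA clusters were few. Of 9 runs of snRNA clusters less than 50 kb apart, the longest held 5 U1 clusters on chromosome 7 between bases 70926380 and 70954003, with signals from 5.95 to 8.89 and pairwise r from 0.59 to 1. None of these 5 passed the filter. The other 8 runs were pairs, 5 of them of U6 only. The annotated span of a gene with a symbol held 74 snRNA clusters on its own strand and 81 on the opposite strand only, and 471 lay in no such span. Signals of host and snRNA cluster went together little, with a median r of 0.01 on the same strand and 0.07 on the opposite strand. No pair exceeded 0.8 or had both partners past the filter. Most snRNA clusters in these pairs were dim, which limits what r can show. With both partners bright there were 11 pairs on the same strand (median r −0.09) and 7 on the opposite strand (−0.06).

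Between the groups, 27 snRNA clusters (4.31%) passed the filter, a FC beyond 1.2 up or down and a limma p below 0.05 before adjustment, 21 higher and 6 lower in group PIV. Over all 25385 clusters tested, 1.82% passed, 1.03% higher and 0.788% lower in group PIV, against 3.35% and 0.959% of the snRNA clusters. A raised share was not particular to snRNAs. Of 359 small nucleolar RNA clusters, 39 passed (10.9%), 6 higher and 33 lower. Of 229 microRNA precursor clusters, 10 passed (4.37%), 6 higher and 4 lower. The split of the snRNA clusters shifted with the scaling, to 15 higher and 12 lower with all array medians set equal and to 14 higher and 8 lower after a second quantile normalization. All clusters shifted too, from 262 higher and 200 lower to 194 and 266 and to 218 and 216. The number of snRNA clusters lower in group PIV was 10 to 18 once P10, P12, P30, K1, K22 or K23 was left out, with 18 without K23. Over all clusters it was 201 to 339 in those fits, with 339 without K23. None of the 626 had an adjusted p under 0.05 (Benjamini-Hochberg over all clusters, 0% called), and the lowest among snRNA clusters was 0.9996. An unadjusted limma p under 0.05 was found for 34 of the 626, beside 921 of all 25385 clusters. The methods' t-test also called none after adjustment. It gave 23 of the 626 an unadjusted p under 0.05, and its count over all clusters is not given here. The median log2 FC was 0.0096 over the snRNA clusters and 0.0059 over all clusters, and 52.9% and 52.3% lay above 0. Pigs were kept in pairs and the pens are not in the labels, so p-values are too small if pen mates were alike.

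**Figure D4:**
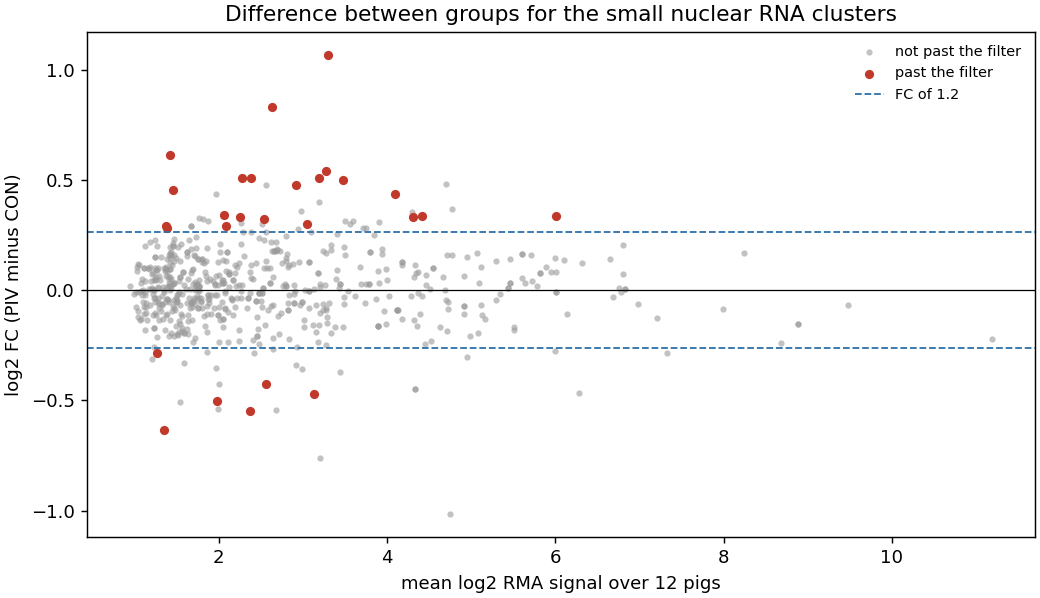
Log2 FC (PIV minus CON, vertical axis) against mean log2 RMA signal over 12 pigs (horizontal axis) for the 626 small nuclear RNA clusters, with the 27 past the filter in red and dashed lines at a FC of 1.2 in either direction. Of the red points, 23 lie below a signal of 4, as most of the other points do, and 21 lie above 0.

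The clusters past the filter were mostly dim, as were the snRNA clusters in general, and held few probes. A mean signal below 4 was found for 23 of the 27, and only U6 cluster 15273926, with 2 probes and a signal of 6.18 ± 0.31 in group PIV and 5.84 ± 0.30 in group CON, was among the 60 brighter clusters. By signal, 2.47% of the 283 snRNA clusters below 2 passed and 6.58% of the 152 from 2 to 3. From 3 to 4 it was 7.14% of 84, and from 4 to 5 it was 5.88% of 51. Other clusters of these signals passed at 1.95%, 3.35%, 2.35% and 1.26%. Of the 27, 20 came from the 220 snRNA clusters with fewer than 10 probes (9.09%) and 7 from the 406 with 10 or more (1.72%). Other clusters passed in 45 of 832 cases (5.41%) below 10 probes and in 390 of 23927 (1.63%) from 10 probes up. None of the 125 snRNA clusters with 19 or more probes passed by limma, where 2 had a p below 0.05, or by the methods' t-test, where 6 did. Other clusters passed by limma in 123 of 7184 cases (1.71%) at 19 to 24 probes and in 74 of 6096 (1.21%) at 25. A count of 0 among 125 is not set apart from those shares. By type, 24 of 495 clusters of type 3 (4.85%) and 3 of 131 of type 1 (2.29%) passed, against 67 of 2907 (2.30%) and 368 of 21852 (1.68%) of the other clusters. No 2 of the 27 had the same values.

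By family, 24 of the 27 were U6 clusters, which is 4.42% of the 543 U6 clusters and close to the 4.31% of all snRNA clusters, and 1 each was of U2, U5 and U6atac. None of the 32 U1 clusters passed by limma or by the methods' t-test, a count too small to set apart from the 1.82% of all clusters that passed by limma, and both gave 1 of them a p below 0.05 before adjustment. U6atac cluster 15199852 on chromosome 10 (bases 7424894 to 7425022; 10 probes, type 1, not marked as cross-hybridising) had a lowest, median and highest signal of 3.99, 4.38 and 4.50 in group PIV, against 3.35, 3.96 and 4.03 in group CON. In group PIV, 5 pigs lay above all control pigs, and the log2 FC was 0.44 ± 0.13 (SE; limma, p = 0.00318; exact permutation test, two-sided, p = 0.00866). U5 cluster 15195974 on chromosome 1 (8 probes) was lower, with 2.31, 2.88 and 3.48 in group PIV against 2.88, 3.36 and 3.75 in group CON, and 3 PIV pigs lay below all control pigs. Its log2 FC was −0.47 ± 0.17 (SE; limma, p = 0.0145; exact permutation test, p = 0.0455). U2 cluster 15318217 on chromosome 7 differed least, with 3.19 ± 0.15 in group PIV and 2.90 ± 0.34 in group CON (limma, p = 0.0433; exact permutation test, p = 0.0931).

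One U6 cluster had no overlap between the groups. Cluster 15187040 on chromosome 1 (bases 137295798 to 137295904; 5 probes) had a signal of 1.29 to 2.34 in group PIV, against 1.01 to 1.23 in group CON, close to the bottom of the scale. Its log2 FC was 0.61 ± 0.15 (SE), a FC of 1.53 (limma, p = 0.00119; exact permutation test, p = 0.00216, the smallest that 924 assignments allow). Over all clusters, 40 of 25385 (0.158%) had no overlap between the groups, and 1 of 626 is not set apart from that share. The opposite direction was led by U6 cluster 15206637 on chromosome 12 (3 probes), with 0.81, 0.97 and 1.31 in group PIV against 1.30, 1.45 and 2.26 in group CON. These values too lay close to the bottom of the scale. In group PIV, 5 pigs lay below every control pig, and the FC was −1.55 (limma, p = 0.00142; exact permutation test, p = 0.00433).

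Of the other U6 clusters that were higher in group PIV, 4 kept their call whichever pig was left out. Cluster 15320345 on chromosome 8 had 2.98, 3.52 and 3.80 in group PIV against 2.54, 2.93 and 3.31 in group CON, a FC of 1.42 (exact permutation test, p = 0.0303). Cluster 15301930 on chromosome 6 had 2.17, 2.52 and 3.11 in group PIV against 1.81, 2.02 and 2.34 in group CON, a FC of 1.42 (exact permutation test, p = 0.0108). In both, 4 PIV pigs lay above all control pigs. Cluster 15224105 on chromosome 14 had 2.31, 2.50 and 3.14 in group PIV against 1.85, 2.09 and 2.68 in group CON (exact permutation test, p = 0.0238), and cluster 15221666 on chromosome 13 had 1.02, 1.70 and 2.14 in group PIV against 1.06, 1.24 and 1.36 in group CON (p = 0.0346 by the same test). For the last of them, 1 PIV pig was below every control pig, and the signals lay close to the bottom of the scale. In all, 8 of the 27 clusters passed whichever of the 12 pigs was left out. The same 8 were among the 11 snRNA clusters that passed by the methods' own test, which 1.18% of all clusters passed. These checks reuse the values by which the 27 were selected, so they are no independent support for the 8. The share of all clusters that passed whichever pig was left out is not given here.

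**Figure D5:**
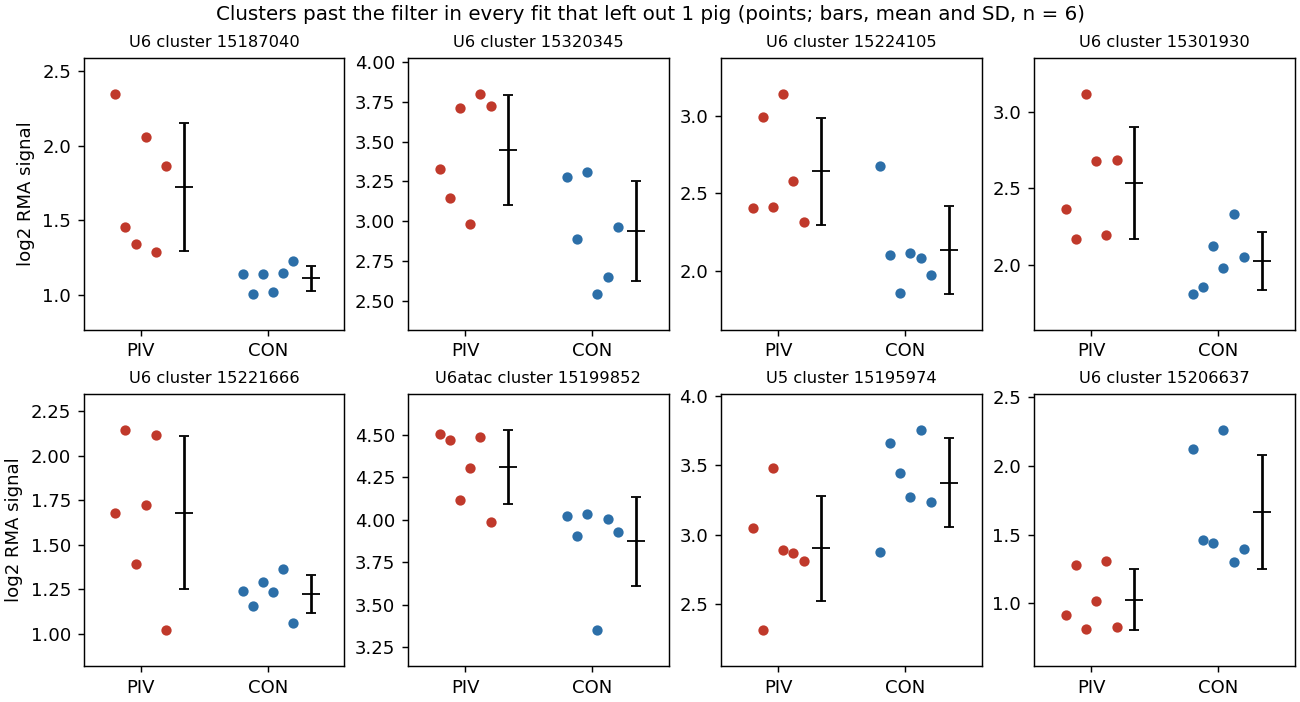
Log2 RMA signal (vertical axis, own range in each panel) in every pig for the 8 clusters that passed the filter whichever of the 12 pigs was left out, with group PIV left of group CON, points for pigs and bars for the mean and SD (n = 6 each). The U6 cluster 15187040 has no overlap, with 1.29 or more in group PIV and 1.23 or less in group CON, whereas the others overlap.

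Both differences beyond 2-fold were in U6 clusters with 1 probe. U6 cluster 15316608 on chromosome 7 (1 probe) had the highest FC, 2.09, with 2.56, 3.75 and 5.27 in group PIV against 1.76, 2.79 and 3.64 in group CON. The SD was 1.02 in group PIV and 0.74 in group CON (limma, p = 0.0202; exact permutation test, p = 0.0693), and the call was lost without P29, P31 or K42. U6 cluster 15311077 on chromosome 7 (2 probes) had a FC of 1.78, with 1.89 to 4.72 in group PIV and 1.46 to 3.44 in group CON, and lost its call in 9 of 12 fits with a pig left out. U6 cluster 15269336 on chromosome 3 (1 probe) had the lowest FC, −2.02, and did not pass (limma, p = 0.0508; exact permutation test, p = 0.128), with 2.59 to 5.90 in group PIV and 4.76 to 6.06 in group CON. It passed with equal array medians (log2 FC −1.03) and once P12, P30, K23 or K42 was left out (−1.11 to −1.35), and its log2 FC was −0.69 without P50. The other U6 clusters named by rank passed with a FC of 1.46 (15296373), 1.41 (15286740), 1.39 (15183888), 1.22 (15187333 and 15209227) and 1.21 (15243360) upward, and of −1.46 (15298477), −1.42 (15329963), −1.34 (15243821) and −1.22 (15217174) downward. In each of these 10, the groups overlapped.

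Genes whose proteins make, assemble and handle snRNAs were called no more often than clusters in general. Of 124 genes in 10 lists, 104 were found, 22 of them by an mRNA entry only, and none passed the filter by limma or by the methods' t-test, which gave 1 and 5 of them a p below 0.05. With 1.82% of all clusters past the filter by limma, a count of 0 among 104 is not set apart from that share. Their median log2 FC was −0.05, and 1 or 2 genes passed once P12, P30 or K42 was left out. A mean signal of at least 5 was measured for 92 of them. The Sm core proteins had a median log2 FC of −0.11 over 7 genes and the LSm ring of U6 one of −0.05 over 6 genes. LSM2, a member of that ring, was the gene with a limma p below 0.05 (5.09 ± 0.17 in group PIV and 5.30 ± 0.11 in group CON, FC −1.16, limma p = 0.0352; exact permutation test, p = 0.0433). POLR3D, a subunit of RNA polymerase III, had a FC of −1.12, and 5 PIV pigs lay below all control pigs (limma, p = 0.0527; exact permutation test, p = 0.00649). INTS1 of Integrator, which trims snRNA ends, had a FC of −1.09 (limma, p = 0.0834; exact permutation test, p = 0.00866). PUS1, which makes pseudouridine in RNA, had one of −1.14 (limma, p = 0.0524; exact permutation test, p = 0.052). SF3A1 of the U2 particle was at a FC of 1.13 (limma, p = 0.0571; exact permutation test, p = 0.0498). GEMIN8 of the SMN complex that loads Sm rings was at 1.09 (limma, p = 0.122; exact permutation test, p = 0.0628). RBM48, a protein of minor intron splicing, was at 1.09 (limma, p = 0.183; exact permutation test, p = 0.158). SNRPN of the Sm core (−1.12), SNRPC of the U1 particle (−1.06) and EFTUD2 of the U5 particle (−1.09) had p-values of 0.0974 to 0.314 in exact permutation tests and of 0.103 to 0.356 by limma.

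The tissue label was met by its markers. The 7 hepatocyte genes measured had signals of 11.3 to 12.9, and none passed the filter. Over the other 7 cell type lists, with 26 genes measured, JCHAIN of plasma cells was the only one past the filter, lower in group PIV (6.01 ± 0.20 in group PIV and 6.48 ± 0.27 in group CON). The 4 T or NK cell genes averaged 5.15 to 5.95 per pig in group PIV and 5.05 to 5.65 in group CON. The part of these cells in the snRNA signals was not tested.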

How the data were processed

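Total liver RNA was labelled and hybridised to Affymetrix Porcine Gene 1.0 ST arrays, 1 per pig. The authors corrected the background, normalized across arrays and summarised probes by RMA (Affymetrix Expression Console 1.4, from the submitters' processing notes), and the deposited values are log2 signals. Annotation columns such as the number of probes were added by the authors and hold other data than measurements. The series value table, which gives the same log2 signals rounded (differences up to 0.005), was used as an alternative. No raw intensities were used, and the number of probes limits precision. The members, gene lists and tests were chosen with earlier results of these data known.

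Python 3.11.15 (pandas 2.3.3, numpy 2.4.6) selected the rows, and limma 3.58.1 in R 4.3.3 fitted PIV minus CON over 25385 clusters, without 3 ribosomal RNA clusters and with no filter on dim clusters. The filter was a FC beyond 1.2 up or down with a p below 0.05 before adjustment, and adjusted p-values are Benjamini-Hochberg over all clusters. Negative FCs are inverse ratios. Exact permutation tests, two-sided, ran over all 924 assignments of 6 of 12 pigs. "Bright" means a mean log2 signal of at least 4. Named were the 10 highest and 10 lowest log2 FCs past the filter, the 5 brightest clusters, the 5 with the largest SD, the brightest of each family and, per gene list, genes past the filter or else the one with the smallest p. Clusters 15224489, 15199852, 15208369 and 15273926 and the gene RPL27A were added after their values were seen. Genes were matched by symbol, updated through RefSeq (Sscrofa11.1), or by the mRNA entry, and the brightest cluster of a gene was taken. Alternatives were the methods' t-test, limma with a variance trend and robust estimation, array weights, a filter on dim clusters, a second quantile normalization, equal array medians, other FC thresholds, subsets by probes and type, and each pig left out. The fits were tested on simulated data. snRNA sequences were not used here.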

Additional observations from a re-analysis of the deposited data

Results flagged for a closer look

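Of 80 groups of 6 pigs tested for a pig far from the others, 2 held one, and chance gives about 1 in 20. In U6 cluster 15224105, control pig K1 had a log2 signal of 2.68, whereas the other control pigs lay between 1.85 and 2.12. In the average of bright U6 clusters, PIV pig P50 had 5.50, and the other PIV pigs lay between 5.16 and 5.27.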

How the results depend on the processing

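Of the 27 snRNA clusters past the filter (21 higher, 6 lower in group PIV), 11 (8 higher, 3 lower) were counted with the methods' t-test and 4 (3 and 1) at a FC of 1.5. The t-test called 300 of all 25385 clusters (1.18%), against 462 (1.82%) by limma. The share of all clusters at a FC of 1.5 is not given here. Fewer clusters entered with a log2 signal of at least 5 in 6 pigs (1 of 60 past the filter, 1 higher and 0 lower), with type 1 only (3 of 131, 3 and 0) and with at least 10 probes (7 of 406, 6 and 1). Over all clusters, 161 of 11789 (1.37%) passed with a log2 signal of at least 5 in 6 pigs. With equal array medians 12 snRNA clusters were lower, beside 266 of all 25385 clusters. With 1 pig left out, 1.68% to 2.78% of all clusters passed. For the snRNA clusters, leaving out 1 pig at a time gave 20 to 35 in all, 12 to 24 higher (12 without P50) and 5 to 18 lower (over 1.5 times the 6 without P10, P12, P30, K1, K22 or K23, with 18 without K23), and 0 to 2 snRNA-handling genes past the filter (among them SNAPC5 without P12, POLR3G without P30, POLR3G and DDX20 without K42). Without both K22 and K23, chosen after seeing the data because they were lowest in bright U1 clusters, 59 passed, 42 of them lower, beside 4.21% of all clusters, and 2 snRNA-handling genes, SNRNP70 and SMN1. That choice itself moves bright clusters toward lower in group PIV. The other settings kept the count within 1.5 times of 27, the median log2 FC over the snRNA clusters lay between −0.04 and 0.03 in all settings, and none gave an adjusted p under 0.05 for a snRNA cluster. For the t-test, the scaling and the left-out pigs the cause was not tested.

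Signs turned for clusters that had not passed. U11 cluster 15324194 had a log2 FC of −0.0198 with array weights and −0.18 without K22 and K23, U5 cluster 15298641 had −0.0558 with array weights, −0.0131 with equal array medians and −0.20 without K22 and K23, and U6atac cluster 15191455 had −0.15 without K22 and K23. With 1 pig left out, the log2 FC ranged from −0.0781 to 0.12 for U11 cluster 15324194, −0.11 to 0.10 for U5 cluster 15298641, −0.0298 to 0.19 for U6atac cluster 15191455, −0.41 to 0.37 for U6 cluster 15289929, −0.0785 to 0.67 for U6 cluster 15243839, −0.0141 to 0.19 for U4 cluster 15323733 and −0.20 to 0.0152 for U1 cluster 15305506. No paired analysis was possible because the labels give the pigs of both groups no shared numbers.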
